A study of Mus musculus with 11 samples.

Results

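The genes described here are 7 components of aldosterone-sensitive sodium uptake: the epithelial sodium channel (ENaC) subunits Scnn1a (alpha), Scnn1b (beta) and Scnn1g (gamma), the kinase Sgk1, the mineralocorticoid receptor Nr3c2, the steroid-inactivating enzyme Hsd11b2 and the sodium pump subunit Atp1b1. They were chosen by name for their place in the pathway, with earlier results of these data known, and are 7 of the 19936 genes measured. Each was read from the 1 transcript cluster that carries its symbol alone (Entrez Gene 20276, 20277, 20278, 20393, 110784, 15484 and 11931, in the order above). The study profiled rectal mucosa RNA of 11 mice at 10 weeks of age, with 1 Affymetrix Mouse Gene 1.0 ST array a mouse, to characterise loss of integrin alpha 6 (Itga6) from intestinal epithelial cells. The group labelled mutant tamoxifen held 4 α6ΔIEC-TAM mice (3 female, 1 male), in which tamoxifen is meant to induce deletion of Itga6 in intestinal epithelium. The group labelled mutant NaCl held 4 α6ΔIEC-TAM mice (3 female, 1 male) gavaged with NaCl in its place, and the group labelled control tamoxifen held 3 wild-type mice (1 female, 2 male) gavaged with tamoxifen. Gavage began at 8 weeks of age and was given on alternate days during 5 days, with tamoxifen at 10 mg per day, and mice were killed 15 days after it began. The promoter that drives the recombinase is not given in the sources used here.

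In the distal colon, aldosterone raises sodium absorption through the mineralocorticoid receptor, a nuclear receptor encoded by Nr3c2. Hsd11b2 inactivates corticosterone and so leaves that receptor to aldosterone. Sodium enters surface colonocytes through ENaC in the apical membrane and leaves through the Na,K-ATPase in the basolateral membrane, whose beta 1 subunit is Atp1b1. The kinase Sgk1, itself induced by the hormone, phosphorylates the ubiquitin ligase Nedd4l, which otherwise removes ENaC from the membrane.

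All values are log2 levels as deposited by the authors, and a difference of 1 is a doubling. Differences, their standard errors (SE), 95% intervals and adjusted p-values come from 1 limma fit over all 11 arrays and all genes, with sex as a term. A gene is said to have risen or fallen where its Benjamini-Hochberg adjusted p was under 0.05. Folds are 2 to the power of the fitted difference. The comparisons share arrays: the mutant tamoxifen arrays enter both comparisons of that group, so the 2 are not independent of each other. Mutant tamoxifen differs from control tamoxifen in genotype as well as in induced deletion. It differs from mutant NaCl in drug as well as in induced deletion. Within either comparison alone these cannot be told apart.

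The labels were checked first. Itga6 was at 11.75, 11.93, 11.84 and 11.77 in the arrays labelled mutant tamoxifen, at 11.39, 11.28, 11.49 and 11.47 in mutant NaCl, and at 11.15, 11.52 and 11.49 in control tamoxifen. The targeted transcript was thus higher where a deletion was induced, by 0.42 against control tamoxifen (adjusted p = 0.00949) and by 0.41 against mutant NaCl (adjusted p = 0.0053), which goes against the label. Where the deleted part lies relative to the probes is not given in the sources used here, so every direction below is that of the arrays so labelled. Epithelial markers averaged 12.01 to 12.16 in mutant tamoxifen, 11.89 to 11.95 in mutant NaCl and 11.89 to 11.98 in control tamoxifen. All 10 of these markers lay above the median gene level of 7.96. Stratified squamous markers, which the rectal mucosa should lack beyond its border with the anal canal, ranged from 8.56 to 10.25 in mutant tamoxifen and from 8.95 to 10.11 in mutant NaCl, and were at 6.62, 7.86 and 10.28 in the 3 control tamoxifen arrays.

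In the arrays labelled mutant tamoxifen, 6 of the 7 genes fell against control tamoxifen and 6 of 7 fell against mutant NaCl, with Scnn1b the exception in the first comparison and Scnn1a in the second. None rose in either. The largest decrease in both was that of Scnn1g, which was 2.11-fold lower than in control tamoxifen and 3.02-fold lower than in mutant NaCl. The median difference of the 7 genes was -0.63 against control tamoxifen and -0.73 against mutant NaCl, beside -0.02 and -0.01 over all genes. Of all genes, 24.6% passed the threshold against control tamoxifen, 11.8% as decreases, and 23.2% passed against mutant NaCl, 10.7% as decreases. Every mutant tamoxifen array lay below every control tamoxifen array for 5 of the 7 genes, against 20.0% of all genes, and below every mutant NaCl array for all 7, against 12.6% of all genes.

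**Figure D1:**
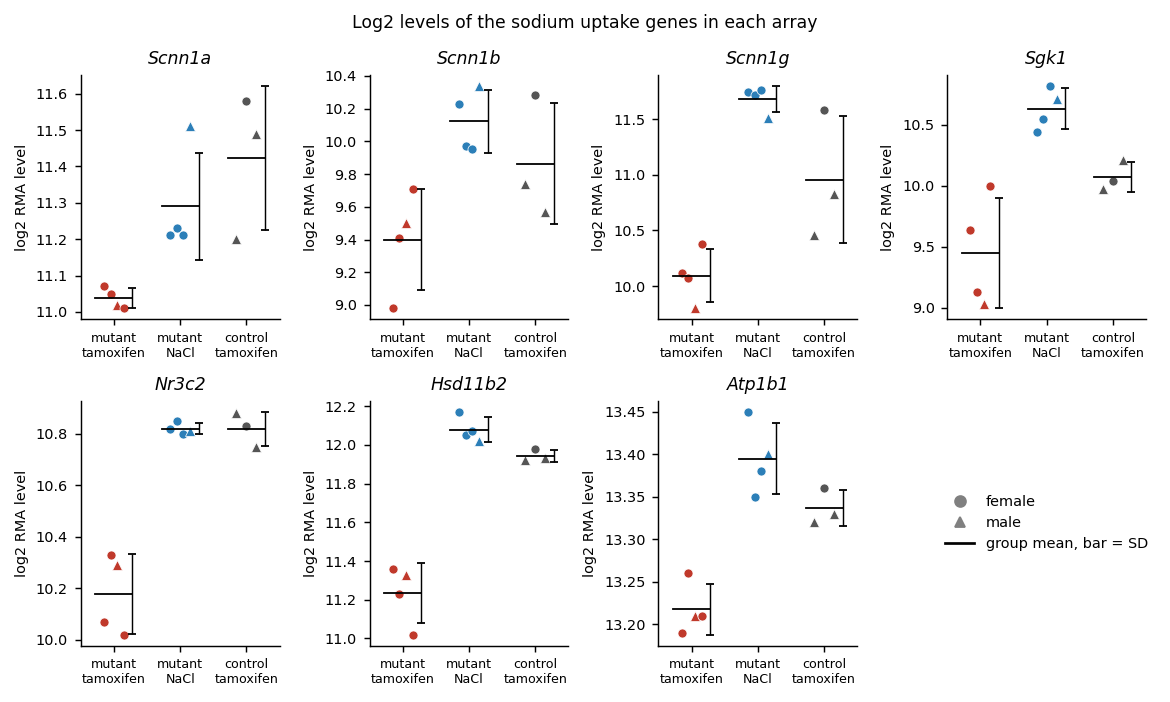
Log2 level of each of the 7 genes in each of the 11 arrays, 1 panel a gene, with the mutant tamoxifen arrays on the left, mutant NaCl in the middle and control tamoxifen on the right; circles are female and triangles male mice, horizontal lines group means and vertical bars the SD. The mutant tamoxifen points of Scnn1a, Scnn1g, Nr3c2, Hsd11b2 and Atp1b1 lie below all others, while those of Scnn1b and Sgk1 overlap control tamoxifen.

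The subunits of the channel were taken first. Scnn1g encodes the gamma subunit, one of those released into full activity by protease cleavage. Its level was 10.12, 10.07, 9.80 and 10.38 in mutant tamoxifen, 11.75, 11.72, 11.76 and 11.51 in mutant NaCl, and 10.46, 11.58 and 10.83 in control tamoxifen. The mutant tamoxifen arrays were all below both other groups, by a gap of 1.13 to the nearest mutant NaCl array and of 0.09 to the nearest control array. Scnn1g fell by 1.59 against mutant NaCl (SE 0.125, interval -1.87 to -1.32, adjusted p = 3.37e-05) and by 1.08 against control tamoxifen (SE 0.144, interval -1.39 to -0.76, adjusted p = 0.000801). Ordered from the largest decrease among 19936 genes, it was number 20 against mutant NaCl and number 81 against control tamoxifen.

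The 3 control arrays of Scnn1g were spread over 1.11 on the log2 scale, against 0.575 in mutant tamoxifen and 0.247 in mutant NaCl. The high control array, at 11.58, was the only female of its group, and the male array was the lowest in each mutant group, at 9.80 in mutant tamoxifen and 11.51 in mutant NaCl. The sex term for Scnn1g, male minus female, was -0.50 (SE 0.12, interval -0.77 to -0.23), with an unadjusted p of 0.00172 that did not pass over all genes (adjusted p = 0.487 with limma). The sex terms of the other 6 genes lay between -0.14 and 0.04. The squamous marker mean was also highest in the female control, at 10.28 against 6.62 and 7.86 in the male controls. With that mean as a covariate, a setting chosen after seeing the data, the difference of Scnn1g was -1.24 against control tamoxifen and -1.62 against mutant NaCl, with limma adjusted p of 0.000335 and 1.05e-05. Among female arrays alone, where the 1 control is assumed to vary like the other groups, Scnn1g fell by 1.39 against control tamoxifen (limma adjusted p = 0.00202) and by 1.56 against mutant NaCl (limma adjusted p = 0.000113).

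Scnn1b encodes the beta subunit. Its level was 8.98, 9.41, 9.50 and 9.71 in mutant tamoxifen, 10.23, 9.97, 9.95 and 10.34 in mutant NaCl, and 9.74, 10.28 and 9.57 in control tamoxifen. Every mutant tamoxifen array was below every mutant NaCl array, but the highest one was above the lowest control. Scnn1b fell by 0.73 against mutant NaCl (SE 0.181, interval -1.13 to -0.33, adjusted p = 0.0154). Against control tamoxifen the difference was -0.49 (SE 0.209, interval -0.95 to -0.02), with an adjusted p of 0.116. That value rested on the female control, since it was -0.10 without control tamoxifen array 2.

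Scnn1a encodes the alpha subunit, which the channel needs to reach the membrane in quantity. Its level was 11.07, 11.05, 11.02 and 11.01 in mutant tamoxifen, 11.21, 11.23, 11.21 and 11.51 in mutant NaCl, and 11.20, 11.58 and 11.49 in control tamoxifen. The mutant tamoxifen arrays spanned 0.0599 and lay below all 7 others. Scnn1a fell by 0.38 against control tamoxifen (SE 0.102, interval -0.60 to -0.15, adjusted p = 0.0218). The call was lost without mutant tamoxifen array 3 (difference -0.35, adjusted p = 0.105), control array 2 (-0.20, 0.244) or control array 3 (-0.35, 0.0535). Against mutant NaCl the difference was -0.25 (SE 0.0883, interval -0.45 to -0.06), with an adjusted p of 0.0651.

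Whether the subunits differed by unequal amounts was asked of the log2 difference between them in each array, with two-sided exact permutation tests over arrays and adjustment over the 9 tests made. These values are raw group means and, unlike the fitted differences, leave sex out. Against mutant NaCl, the difference of Scnn1g minus that of Scnn1a was -1.34, that of Scnn1g minus Scnn1b was -0.87, and that of Scnn1b minus Scnn1a was -0.48. For each pair the 4 mutant tamoxifen arrays lay below the 4 mutant NaCl arrays. Each of these had an exact p of 0.0286, the smallest that 4 arrays against 4 allow, and an adjusted p of 0.0857. No result of these 9 tests could fall under 0.05 after adjustment, so they stand as a description. Against control tamoxifen the same values were -0.48 (exact p = 0.171), -0.40 (exact p = 0.114) and -0.08 (exact p = 0.686), in a design whose smallest exact p is 0.0571.

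**Figure D2:**
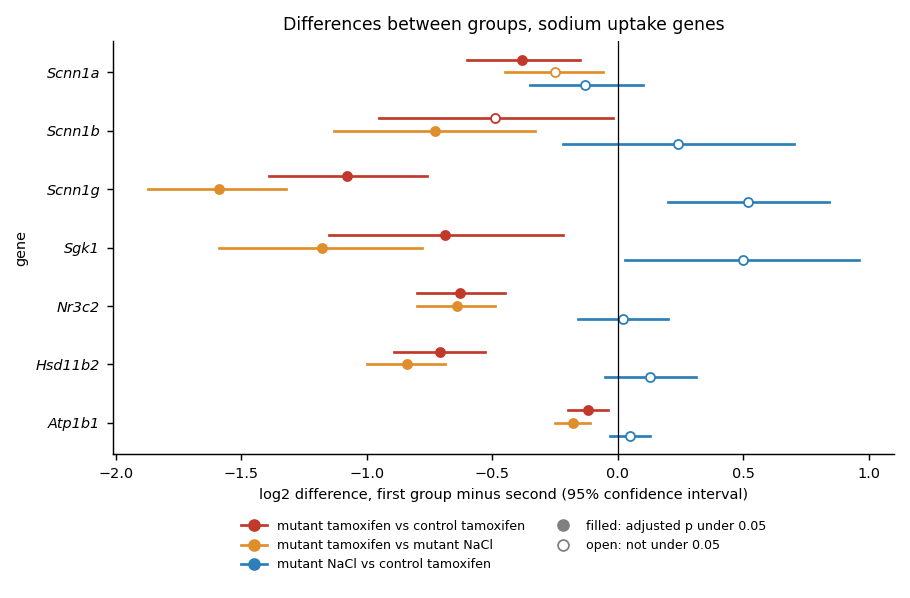
Fitted log2 difference of each of the 7 genes with its 95% interval, for mutant tamoxifen minus control tamoxifen, mutant tamoxifen minus mutant NaCl, and mutant NaCl minus control tamoxifen. Scnn1g stands lowest in both comparisons of mutant tamoxifen, at -1.08 and -1.59, and Atp1b1 lies closest to 0, at -0.12 and -0.18.

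Scnn1b and Scnn1g are neighbours on mouse chromosome 7, with 0 other protein-coding genes between them in the RefSeq table of GRCm38.p6. Their profiles over the 11 arrays, each centred on its own mean, differed by a root mean square of 0.459. The genes whose centred profile was nearest to that of Scnn1g were Fxyd4, B4galnt2 and Sgk1, at root mean square differences of 0.328, 0.343 and 0.35 over 11 arrays, where the profile of Scnn1g itself has a root mean square of 0.735. Those nearest to Scnn1b were Mir192, Prdx6-ps2 and Abca13, at 0.201, 0.224 and 0.229. Those nearest to Scnn1a were Fmo1, Slc9a3r1 and Nat8f2, at 0.0654, 0.0819 and 0.0844, the second of which encodes a scaffold protein of the apical membrane. Sgk1, in turn, was nearer to Bche, Stmn2 and Pcp4 than to Scnn1g, at 0.233, 0.271 and 0.276. Stmn2 is among the neuron and glia markers used below and Pcp4 among the smooth muscle markers. These likenesses describe the same 11 arrays and carry no test.

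Upstream of the channel, Sgk1 was at 9.64, 9.13, 9.03 and 10.00 in mutant tamoxifen, 10.44, 10.55, 10.82 and 10.71 in mutant NaCl, and 9.97, 10.04 and 10.21 in control tamoxifen. All mutant tamoxifen arrays were below all mutant NaCl arrays, and array 4 alone reached into the control range. Sgk1 fell by 1.18 against mutant NaCl, 2.27-fold (SE 0.183, interval -1.59 to -0.78, adjusted p = 0.00142). Against control tamoxifen it fell by 0.69, 1.61-fold (SE 0.211, interval -1.15 to -0.22, adjusted p = 0.037). This second call was lost on leaving out mutant tamoxifen array 2 or 3, any of the 3 control arrays, or mutant NaCl array 3, with adjusted p from 0.0502 to 0.24. It was also lost with robust variances (0.0612), with all transcript clusters (0.0592), with the 2 groups' arrays alone (0.0589) and among female arrays, where the difference was -0.45 (limma adjusted p = 0.379).

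The promoter of Sgk1 is shown because mineralocorticoid and glucocorticoid receptors bind a palindrome of the 6-base motifs AGAACA and TGTTCT with 3 bases between them. RefSeq (GRCm38.p6) lists 6 starts for Sgk1, and the window from 250 bases before to 50 bases after a start held at least 1 of these motifs, on either strand, at 3 of the 6. The 2 motifs are each other's reverse complement, so 1 search finds both strands. The share was 19% among all 32851 promoter windows. At the fifth start, written in capitals below, the motifs begin 242, 189 and 180 bases before the start, and the last 2 form the palindrome with 3 bases between them. That spacing occurred in 3 of the 32851 windows (0.00913%).
Sgk1 promoter, chr10:21993640-21993939, plus strand: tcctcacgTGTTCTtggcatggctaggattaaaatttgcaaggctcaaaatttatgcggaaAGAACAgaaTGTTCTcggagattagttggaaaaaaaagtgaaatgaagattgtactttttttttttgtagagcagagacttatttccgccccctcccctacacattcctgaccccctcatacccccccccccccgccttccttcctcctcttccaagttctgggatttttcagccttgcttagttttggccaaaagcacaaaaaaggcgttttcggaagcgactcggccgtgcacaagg
A match is a description of letters and not a binding site, and which start was in use is not resolved by a gene-level array. The windows of Scnn1b, Scnn1g, Nr3c2 and Atp1b1, 1 start each, held neither motif, and Scnn1a and Hsd11b2 were not searched.

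Nr3c2, the receptor itself, was at 10.07, 10.33, 10.29 and 10.02 in mutant tamoxifen, 10.82, 10.85, 10.80 and 10.81 in mutant NaCl, and 10.88, 10.83 and 10.75 in control tamoxifen. Both other groups lay within a narrow band above every mutant tamoxifen array. Nr3c2 fell by 0.63 against control tamoxifen, 1.54-fold (SE 0.0807, interval -0.80 to -0.45, adjusted p = 0.000656). It fell by 0.64 against mutant NaCl, 1.56-fold (SE 0.0701, interval -0.80 to -0.49, adjusted p = 0.000206).

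Hsd11b2, the enzyme that shields the receptor from corticosterone, was separated in the same way. Its level was 11.36, 11.23, 11.33 and 11.02 in mutant tamoxifen, 12.17, 12.05, 12.07 and 12.02 in mutant NaCl, and 11.92, 11.98 and 11.93 in control tamoxifen. No mutant tamoxifen array reached either other group. Hsd11b2 fell by 0.71 against control tamoxifen, 1.63-fold (SE 0.0811, interval -0.89 to -0.53, adjusted p = 0.000363). It fell by 0.84 against mutant NaCl, 1.79-fold (SE 0.0704, adjusted p = 4.37e-05). Of all pairs among the 7 genes, Nr3c2 and Hsd11b2 had the smallest root mean square difference between centred profiles, 0.132 over the 11 arrays. Scnn1g and Atp1b1 had the largest, at 0.663. This measure counts the size of a change as well as its shape. The profile of Atp1b1 itself has a root mean square of only 0.0815, against 0.735 for Scnn1g, so 0.663 does not show that their shapes differ.

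At the basolateral side, Atp1b1 was at 13.19, 13.26, 13.21 and 13.21 in mutant tamoxifen, 13.45, 13.35, 13.38 and 13.40 in mutant NaCl, and 13.32, 13.36 and 13.33 in control tamoxifen. The mutant tamoxifen arrays lay below all others, the other groups overlapped, and the whole range was small. Atp1b1 fell by 0.18 against mutant NaCl, 1.13-fold (SE 0.0313, interval -0.25 to -0.11, adjusted p = 0.00284). It fell by 0.12 against control tamoxifen, 1.09-fold (SE 0.036, interval -0.20 to -0.04, adjusted p = 0.0302), a call that was lost without mutant tamoxifen array 1 or 3 or control array 2 or 3, with adjusted p from 0.0551 to 0.162. It was also lost with array centring (0.0633), renewed quantile normalisation (0.0796), no variance trend (0.0562), the 2 groups' arrays alone (0.0724) and female arrays alone (0.177). The mean level of its transcript cluster was at percentile 99.8 of all genes.

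Mutant NaCl was set against control tamoxifen to ask how the 2 groups without induced deletion compare. These groups differ in genotype and in drug, and no wild-type mice given NaCl were profiled. Effects of genotype and of tamoxifen therefore cannot be told apart here, and could offset each other. None of the 7 genes passed the threshold with limma, nor did any of the 19936 genes (0%). At an unadjusted p under 0.05 there were 2 of the 7 genes and 1622 of all genes. Sgk1 was higher in every mutant NaCl array than in every control array, with a difference of 0.50 (interval 0.03 to 0.96, adjusted p = 0.605), and so was Hsd11b2, with a difference of 0.13 (interval -0.05 to 0.31, adjusted p = 0.693). Such separation upward was seen in 2.82% of all genes. Scnn1g differed by 0.52 (interval 0.20 to 0.84, adjusted p = 0.516), but its female control array was above 1 of the 4 mutant NaCl arrays, and among female arrays the difference was 0.17. The differences of Scnn1a, Scnn1b, Nr3c2 and Atp1b1 were -0.13, 0.24, 0.02 and 0.05, and their groups overlapped. In order of mean level, mutant NaCl was highest for Scnn1b, Scnn1g, Sgk1, Hsd11b2 and Atp1b1 and control tamoxifen for Scnn1a, while for Nr3c2 the 2 groups had the same mean of 10.82. Mutant tamoxifen was lowest for all 7.

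The remaining genes of the pathway were taken from 6 lists that hold 67 genes, of which 61 were measured. Against control tamoxifen 7 of the 61 rose and 19 fell, with a median difference of -0.10, and against mutant NaCl 8 rose and 24 fell, also with a median of -0.10. The share past the threshold over all genes was 24.6% and 23.2%, as given above, with 11.8% and 10.7% as decreases. These shares stand beside the counts of each list below.

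**Figure D3:**
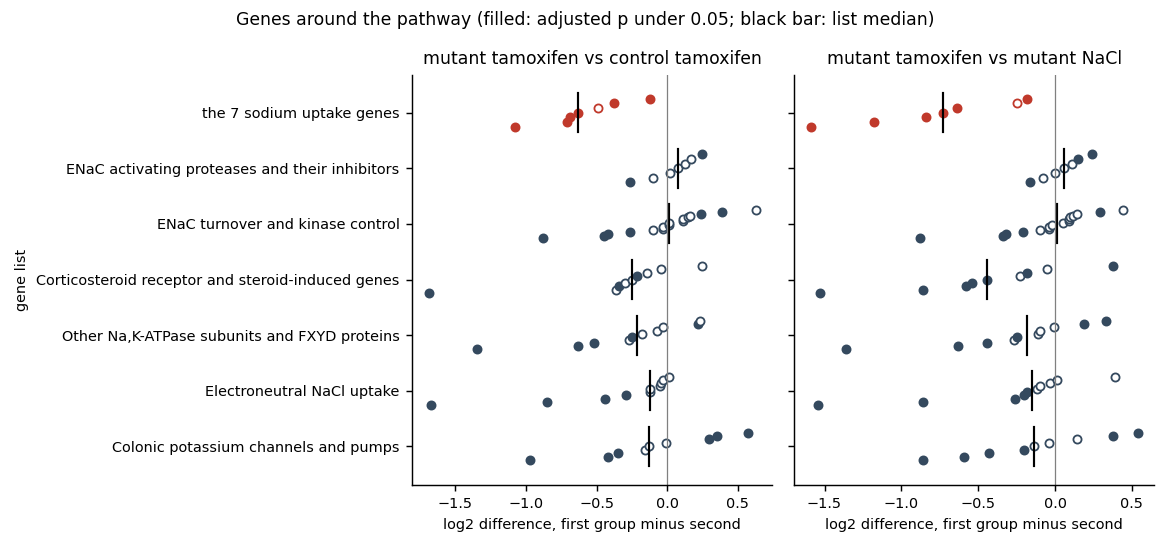
Log2 differences of the measured genes of the 6 pathway lists and of the 7 genes described here, for mutant tamoxifen minus control tamoxifen and mutant tamoxifen minus mutant NaCl; points are genes, filled where the adjusted p was under 0.05, and black bars are list medians. The lowest points are Edn1 at -1.69 and Slc26a3 at -1.67 against control tamoxifen.

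Of 7 proteases that cleave ENaC and their inhibitors, 1 rose and 1 fell against control tamoxifen (median 0.08), and 2 rose and 1 fell against mutant NaCl (median 0.06). Furin, which cleaves ENaC in the secretory pathway, rose by 0.25 (adjusted p = 0.0244) and 0.24 (adjusted p = 0.0169). Spint2, an inhibitor of membrane-bound serine proteases, fell, with differences of -0.26 (adjusted p = 0.00153) and -0.16 (adjusted p = 0.00811). St14 (matriptase) rose by 0.15 against mutant NaCl (adjusted p = 0.025), with 0.13 against control tamoxifen (adjusted p = 0.0645). Prss8 (prostasin), the best known channel-activating protease, differed by 0.02 (interval -0.17 to 0.21) and 0.00 (interval -0.17 to 0.16), with adjusted p of 0.873 and 0.981.

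Of the 16 genes that control ENaC turnover and its kinases, the same 4 fell in both comparisons, beside 11.8% and 10.7% of all genes. The list median was 0.01 in both. Of the 16, 10 did not pass the threshold against control tamoxifen and 11 did not against mutant NaCl. Nedd4l, the ligase that removes the channel, differed by -0.26 against control tamoxifen (adjusted p = 0.015) and -0.21 against mutant NaCl (adjusted p = 0.0199). Usp2, a deubiquitylase that opposes Nedd4l, had the largest decrease of the list, with -0.88 in both (adjusted p = 0.00248 and 0.00114). The scaffold Cnksr3 fell too, with -0.45 (adjusted p = 0.00117) and -0.32 (adjusted p = 0.003), as did the kinase Wnk2. Stk39, a kinase that WNK kinases activate, rose in both, and Ywhae, a 14-3-3 protein, against control tamoxifen. Wnk1 differed by -0.03 (adjusted p = 0.773) and -0.10 (adjusted p = 0.204).

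Of 9 genes of corticosteroid receptors and their targets, 3 fell and 0 rose against control tamoxifen, and 6 fell and 1 rose against mutant NaCl. Decreases made up 11.8% and 10.7% of all genes. Edn1 (endothelin 1), which aldosterone induces in the kidney, was 3.22-fold lower than in control tamoxifen (difference -1.69, adjusted p = 0.000194) and 2.89-fold lower than in mutant NaCl (-1.53, adjusted p = 0.000109). Klf9, a transcription factor induced by glucocorticoids, differed by -0.34 (adjusted p = 0.00338) and -0.58 (adjusted p = 7.6e-05). Nr3c1, the glucocorticoid receptor, fell in both, with -0.21 (adjusted p = 0.0324) and -0.18 (adjusted p = 0.0417). Its calls were lost in 8 and 12 of 24 other settings. The steroid-induced genes Zbtb16 (-0.86, adjusted p = 0.00181), Per1 (-0.54, adjusted p = 0.0163) and Tsc22d3 (-0.44, adjusted p = 0.0244) fell against mutant NaCl. Against control tamoxifen their differences were -0.36, -0.25 and -0.30, with adjusted p of 0.13, 0.281 and 0.139. Fkbp5, a chaperone that steroid receptors induce, differed by -0.04 (adjusted p = 0.882) and -0.23 (adjusted p = 0.339). Hsd11b1, which regenerates active glucocorticoid, rose against mutant NaCl. Ndrg2, also on this list, passed in neither comparison, with -0.14 (adjusted p = 0.0887) and -0.05 (adjusted p = 0.553). Edn1, Klf9 and Hsd11b1 are named because they passed.

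Among 10 other subunits and partners of the Na,K-ATPase, Fxyd4 had the largest decrease in both comparisons. It encodes a small membrane protein that raises the pump's affinity for sodium and that corticosteroids induce in the rat colon. Fxyd4 was at 8.60, 8.86, 8.47 and 9.07 in mutant tamoxifen, 9.97, 10.11, 10.10 and 10.24 in mutant NaCl, and 9.75, 10.24 and 10.11 in control tamoxifen. All 4 mutant tamoxifen arrays were below all others, 2.55-fold below control tamoxifen (difference -1.35, adjusted p = 0.000273) and 2.56-fold below mutant NaCl (-1.36, adjusted p = 9.67e-05). Fxyd1, Fxyd6 and Fxyd7 also fell in both comparisons, and Fxyd3 rose against mutant NaCl by 0.33 (adjusted p = 0.0453), with 0.23 against control tamoxifen (adjusted p = 0.186). The call of Fxyd3 was lost in 14 of 24 other settings. Atp1b3, the beta 3 subunit, went the other way from Atp1b1 and rose by 0.22 (adjusted p = 0.0224) and 0.19 (adjusted p = 0.0211).

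Electroneutral sodium chloride uptake pairs sodium-proton with chloride-bicarbonate exchange. It had 4 of 10 genes lower against control tamoxifen and 5 of 10 against mutant NaCl, and 0 higher. The share of decreases over all genes was 11.8% and 10.7%. The chloride-bicarbonate exchanger Slc26a3 was 3.18-fold lower than in control tamoxifen (-1.67, adjusted p = 2.65e-06) and 2.9-fold lower than in mutant NaCl (-1.54, adjusted p = 7.92e-07). The sodium-proton exchanger Slc9a2 was 1.81-fold lower in both (-0.85, adjusted p = 0.000414; -0.86, adjusted p = 0.000142). Slc9a3, the best studied sodium-proton exchanger of the gut, had wide intervals, with -0.04 (interval -1.25 to 1.17) and 0.39 (interval -0.66 to 1.44). Of 9 colonic potassium channels and ion pumps, Kcnk5, Kcnq1 and Kcne3 fell in both comparisons and Kcnk1 and the cotransporter Slc12a2 rose in both. Kcnn4 rose against control tamoxifen by 0.35 (adjusted p = 0.00857), with 0.14 against mutant NaCl (adjusted p = 0.177). Kcnma1, the large-conductance channel that aldosterone raises in the distal colon, fell against mutant NaCl (-0.20, adjusted p = 0.0292), with -0.16 against control tamoxifen (adjusted p = 0.0995). The potassium pump Atp12a differed by -0.13 (interval -0.42 to 0.16) and -0.14 (interval -0.40 to 0.11).

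Markers of several cell types also differed in mutant tamoxifen, and their part in the decreases was not tested. In whole mucosa, fewer cells of a type and less RNA per cell cannot be told apart. Over all genes, 24.6% passed the threshold against control tamoxifen (11.8% as decreases) and 23.2% against mutant NaCl (10.7% as decreases). Of the 10 epithelial markers, 2 rose against control tamoxifen and 4 against mutant NaCl, and 0 fell, with a median difference of 0.11 in both. Surface colonocyte markers, the cells that carry ENaC, averaged 11.47 to 11.67 in mutant tamoxifen, 12.00 to 12.14 in mutant NaCl and 12.05 to 12.22 in control tamoxifen, and 6 of 10 fell and 2 rose against control tamoxifen, 7 fell and 2 rose against mutant NaCl. Slc26a3 is among those 10 markers. Their median difference was -0.50 against control tamoxifen and -0.39 against mutant NaCl. Proliferating cell markers averaged 10.28 to 10.44 in mutant tamoxifen, 9.78 to 10.01 in mutant NaCl and 9.17 to 9.77 in control tamoxifen, and 9 of 9 and 7 of 9 rose. Smooth muscle markers averaged 11.42 to 11.56 in mutant tamoxifen, 11.84 to 12.13 in mutant NaCl and 11.99 to 12.11 in control tamoxifen, and all 12 fell in both comparisons. Neutrophil markers averaged 6.77 to 7.27 in mutant tamoxifen, 6.11 to 6.23 in mutant NaCl and 6.18 to 6.34 in control tamoxifen. All 9 rose in both comparisons, and all 9 lay below the median gene level.

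**Figure D4:**
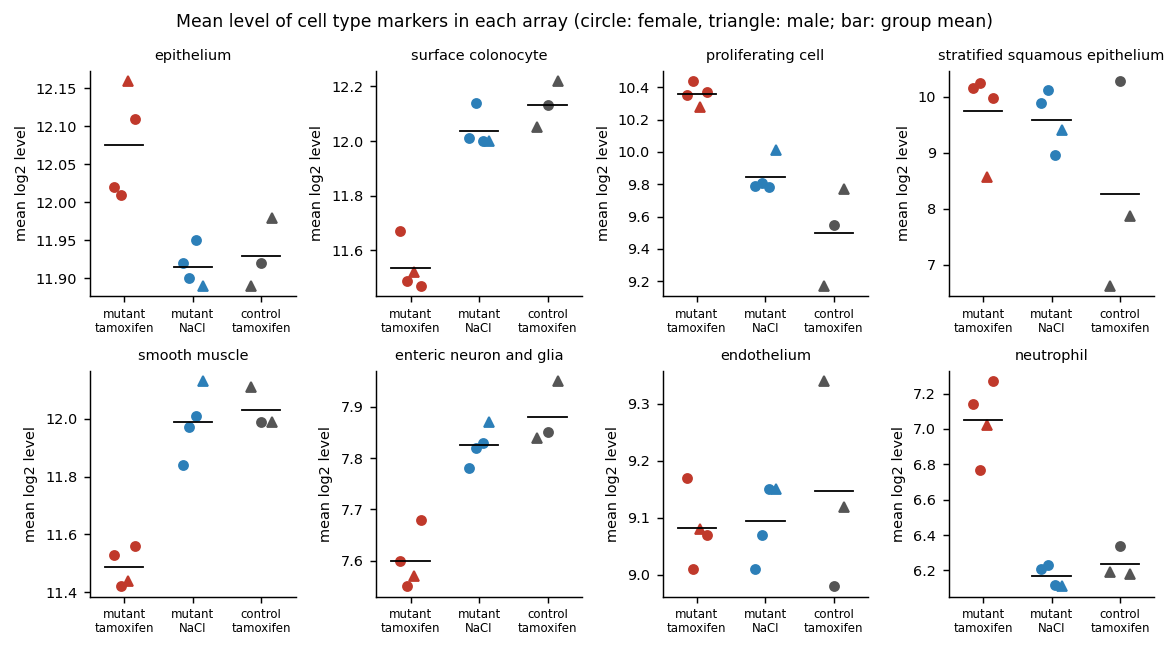
Mean log2 level of each marker list in each of the 11 arrays, with mutant tamoxifen on the left, mutant NaCl in the middle and control tamoxifen on the right; circles are female and triangles male mice, and lines group means. Surface colonocyte and smooth muscle markers lie below both other groups in mutant tamoxifen, proliferating cell and neutrophil markers lie above them, and the squamous markers of control tamoxifen range from 6.62 to 10.28.

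Neuron and glia markers averaged 7.55 to 7.68 in mutant tamoxifen, 7.78 to 7.87 in mutant NaCl and 7.84 to 7.95 in control tamoxifen. Of the 10, 5 fell against control tamoxifen, and 4 fell and 1 rose against mutant NaCl. Decreases made up 11.8% and 10.7% of all genes in these comparisons. None of the 8 endothelial markers passed in either comparison. None of the 10 squamous markers passed either, but their mean was uneven across arrays. With that mean as a covariate, 4 of the 7 genes fell against control tamoxifen and 7 of 7 against mutant NaCl. In that fit 17.2% of all genes passed against control tamoxifen and 23% against mutant NaCl. Without the covariate the shares were 24.6% and 23.2%. The calls lost against control tamoxifen were Sgk1 (adjusted p = 0.0888) and Atp1b1 (adjusted p = 0.0542).

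**Figure D5:**
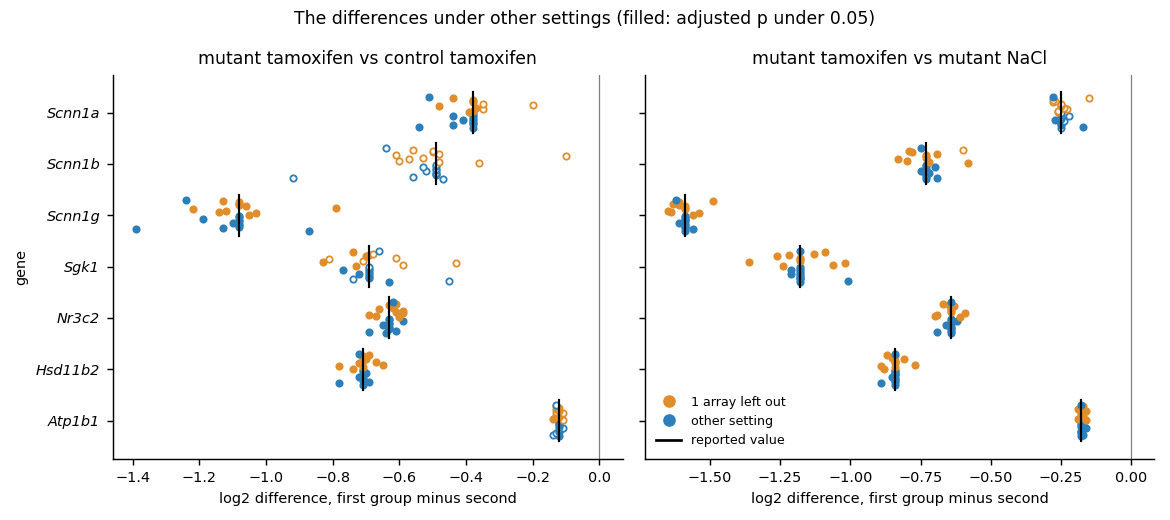
Fitted log2 difference of each of the 7 genes under every processing setting, for mutant tamoxifen minus control tamoxifen and mutant tamoxifen minus mutant NaCl; each point is 1 setting (orange with 1 array left out, blue otherwise), filled where the adjusted p was under 0.05, and black bars mark the reported values. Scnn1g, Nr3c2 and Hsd11b2 stay below 0 and filled in all settings run, while the points of Scnn1b against control tamoxifen run from -0.92 to -0.10 and are never filled.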

How the data were processed

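RNA from the rectal mucosa of 11 mice was measured on Affymetrix Mouse Gene 1.0 ST arrays. The authors deposited log2 values, 1 per transcript cluster and array, made in Expression Console version 1.1 with RMA (background correction, quantile normalisation and probe summary), from images read with Command Console version 2.0, per the labels and the series design text. Quantile normalisation gives all arrays nearly the same distribution (array medians 7.29 to 7.35), so differences are relative to the other genes. Partek is named, without a role, in the submitters' processing notes, and a genome build is not given in the sources used here. The number of arrays limits the precision.

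Of 35556 transcript clusters, 21789 had 1 gene symbol in the platform annotation, 1621 had several and 12146 were not listed there. Of the 21789, 21766 matched the RefSeq table of GRCm38.p6, 2 were updated through an accession and 21 kept their symbol. The brightest cluster was kept for 1001 genes with several, which gave 19936 genes. All arrays were fitted in limma 3.58.1 (R 4.3.3) with group and sex, moderated variances with a trend, two-sided tests, p-values adjusted over all genes (Benjamini-Hochberg) and a threshold of 0.05. Exact permutation tests used scipy 1.17.1. On simulated data over 19936 genes with 200 changed, a log2 change of 0.5 was called for 79% of them between mutant tamoxifen and control tamoxifen and for 87% between mutant tamoxifen and mutant NaCl. Changes of 1 were called for 95.5% and 97.5%. In the real arrays 4913 and 4633 genes passed, far more than the 200 changed here. The adjustment depends on that number, so these rates hold for the simulated setting only.

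Groups come from the genotype and treatment labels, and replicate numbers, given in accession order, only name an array. The members and lists were chosen with earlier results of these data known. Named were the 7 genes, 22 genes picked from the lists (21 measured), list genes past the threshold and Ndrg2. The 3 genes nearest each ENaC subunit and Sgk1 were named too. Promoter sequences are from RefSeq. List genes that could not be matched to a cluster are not analysed here. Alternatives were other filters, normalisations and variance settings, female arrays only, no sex term, the 2 groups alone, and leaving out each array.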

Additional observations from a re-analysis of the deposited data

Results flagged for a closer look

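In 5 of the 56 sets of arrays of 1 gene and 1 group of 4 that were looked at, 1 array lay far from the other 3, by a gap over range above Dixon's critical value at the 95% level. Chance gives about 1 in 20. Among the genes described, Scnn1a was at 11.51 in mutant NaCl array 4, with the other 3 at 11.21 to 11.23. Scnn1g was also at 11.51 in that array, with the other 3 at 11.72 to 11.76. That array, the only male of its group, was thus the highest of its group for Scnn1a and the lowest for Scnn1g, and at 10.34 it was also the highest for Scnn1b. Of the pathway genes, Tsc22d3 was at 9.43 in mutant NaCl array 2, with the others at 9.62 to 9.65. In mutant tamoxifen array 2, Per1 was at 9.07, with the others at 9.70 to 9.80, and Slc9a3 was at 7.37, with the others at 8.49 to 8.65.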

How the results depend on the processing

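With 4, 4 and 3 arrays a group, several calls of the smaller differences depended on single arrays or on the setting. Against control tamoxifen, the count of the 7 genes past the threshold was 3 to 6 on leaving out 1 array, and it was 3 without mutant tamoxifen array 3, control array 2 or control array 3. In the other settings it was 4 to 6, with 4 among female arrays, with only the 2 groups' arrays and with the squamous marker mean as a covariate, and against mutant NaCl it was 5 to 7 throughout. No difference past the threshold as reported changed sign in any setting. Scnn1g, Nr3c2 and Hsd11b2 kept their calls in all settings run in both comparisons of mutant tamoxifen, as did Sgk1 and Atp1b1 against mutant NaCl. Scnn1b against mutant NaCl lost its call without mutant NaCl array 4 (adjusted p = 0.0563), and Scnn1a gained one there in 7 settings. Over all genes, the calls against control tamoxifen numbered 4913, but 1385 among female arrays, 2515 without mutant tamoxifen array 3 and 3030 without control array 2. Mutant NaCl against control tamoxifen gave 0 calls, and up to 3 in other settings, none among the 7 genes. Of the 21 measured pathway genes picked by name, 5 of 10 calls against control tamoxifen and 7 of 15 against mutant NaCl held in all 24 settings. The others were lost in at least 1 setting, and in up to 8 against control tamoxifen and up to 14 against mutant NaCl. They were Nr3c1, Nedd4l and Atp1b3 in both comparisons, Furin and Kcnn4 against control tamoxifen, and Fxyd3, Kcnma1, St14, Tsc22d3 and Per1 against mutant NaCl. Differences past the threshold neither as reported nor in the setting tried changed sign 6 times among the 7 genes, where the largest reported one was 0.24, and 79 times among those 21 genes, where it was 0.43. Among these was Atp12a against control tamoxifen, at 0.05 without control array 2 (adjusted p = 0.857). Without control array 1, Atp12a kept its reported sign and passed (-0.29, adjusted p = 0.028). No paired analysis was possible because the labels give no replicate numbers shared between groups.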
